A study of Mus musculus with 49 samples.

Results

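Skin of imiquimod-treated DITRA-like mice given an antibody to the interleukin-36 receptor was compared with skin of such mice given an antibody to IL-12p40, across all genes. Of the 49 libraries in the series, 14 belonged to this comparison: 7 from IMQ skin with anti-IL-36R and 7 from IMQ skin with anti-IL-12p40, chosen by their titles. Of 24475 genes in the skin table, 15345 passed the filter on low counts and were tested. DITRA-like mice model deficiency of the interleukin-36 receptor antagonist. Every group had the same mixed background, 75% C57BL/6NTac and 25% 129S6/SvEvTac, and the labels name no allele, promoter, age, antibody dose or sampling time. Imiquimod (IMQ) is a Toll-like receptor agonist that inflames the skin when applied to it. The labels describe anti-IL-36R as directed against the human receptor and anti-IL-12p40 as directed against the mouse protein, and they do not name the receptor allele that the mice carry. The other skin groups were 6 libraries from IMQ with PBS, the vehicle, and 3 from water with PBS. Colon of mice given dextran sulfate sodium (DSS) served for 1 comparison, with 8 anti-IL-36R and 7 anti-IL-12p40 libraries. The labels do not say that libraries came from separate mice, so p-values measure the spread between libraries.

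Interleukin-36 cytokines are released by keratinocytes and signal through a receptor encoded by Il1rl2, which drives NF-kB-dependent cytokine and chemokine genes, and the antagonist encoded by Il1f5 occupies that receptor. IL-12p40, encoded by Il12b, is a subunit of both interleukin-12 and interleukin-23, and interleukin-23 sustains T cells that secrete interleukin-17A, interleukin-17F and interleukin-22. In mouse skin under imiquimod these cells are largely gamma delta T cells, and their cytokines act on keratinocytes to induce antimicrobial proteins and neutrophil chemokines.

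The libraries held 14.95 M to 19.57 M expected counts with anti-IL-36R and 14.72 M to 19.68 M with anti-IL-12p40. Epidermal keratin genes were abundant in all 14, with Krt5 at 5510 to 8030 CPM (counts scaled to the library total) and Krt14 at 6980 to 17900 CPM, while the intestinal genes Vil1, Cdx2 and Slc26a3 did not exceed 0.401 CPM. Anti-IL-36R replicate 7 and anti-IL-12p40 replicate 2 stood apart in several gene groups, and many results that rest on them are given with and without them. The numbers in the titles place all anti-IL-12p40 libraries in a run of their own, and the anti-IL-36R libraries in another run together with PBS replicates 4 to 6. Those numbers are not stated to be batches, and that run and the antibody cannot be told apart.

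Skin under the antibodies differed in 7 of 15345 genes (0.0456%) by edgeR's quasi-likelihood test at a Benjamini-Hochberg adjusted p under 0.05. Il17f and 5830411N06Rik were higher with anti-IL-36R (0.013% of genes tested), and Igf2bp3, 4930463O16Rik, Gcn1, Gm5779 and Krt13 were lower (0.0326%). Only the Igf2bp3, 4930463O16Rik and 5830411N06Rik calls were made in all 21 alternative analyses run. The median log2 fold change over all genes was -0.0027. The 95% interval of the fold change lay within a doubling or a halving for 13964 genes (91%).

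Igf2bp3 encodes an RNA-binding protein of the insulin-like growth factor 2 mRNA-binding family, abundant in fetal tissue and low in most adult tissue. It had 0.446, 0.782 and 1.37 CPM (lowest, median and highest of 7) with anti-IL-36R, against 40.2, 54.4 and 76.2 CPM with anti-IL-12p40. Every anti-IL-12p40 library was far above every anti-IL-36R library. PBS libraries under IMQ had 0.303 to 1.92 CPM and water libraries 0.327 to 1.46 CPM, so the anti-IL-12p40 group, which is also the group in a run of its own, was the high one. The difference was a log2 fold change of -6.12 ± 0.30 (SE, adjusted p = 1.08e-11), or 69.5-fold lower with anti-IL-36R, on 94 against 6852 counts in all. Over all skin values, those of genes not tested included, 16.69% were fractional. For Igf2bp3 the counts were fractional in 78.6% of the 14 libraries, so some reads were shared with another gene. Against PBS under IMQ, the log2 fold change was -0.24 ± 0.38 with anti-IL-36R (adjusted p = 0.760) and 5.88 ± 0.31 with anti-IL-12p40 (adjusted p = 7.02e-11), both from edgeR and both against the same PBS libraries. Malsu1, which overlaps the gene on the opposite strand, had a log2 fold change of 0.17 ± 0.09 (adjusted p = 1). Its paralogs did not pass either: Igf2bp2 had 11.4, 15.2 and 30.7 CPM against 8.90, 14.1 and 15.2 CPM, at 0.45 ± 0.18, and Igf2bp1 stood at -0.11 ± 0.52.

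4930463O16Rik, annotated as a long noncoding RNA, followed the same order of groups. It had 0.119, 0.324 and 0.399 CPM with anti-IL-36R, against 5.15, 14.9 and 21.8 CPM with anti-IL-12p40. The groups did not overlap, and PBS libraries under IMQ (0.0520 to 0.468 CPM) and water libraries (0.113 to 0.265 CPM) lay with the anti-IL-36R group. The log2 fold change was -5.46 ± 0.32 (edgeR adjusted p = 1.94e-10), or 44.0-fold lower with anti-IL-36R, on 37 against 1769 counts. Against the shared PBS libraries it was 0.27 ± 0.45 with anti-IL-36R (adjusted p = 0.766) and 5.73 ± 0.35 with anti-IL-12p40 (adjusted p = 5.30e-10). Igf2bp3 and 4930463O16Rik lie on different chromosomes, and 0 of the 18 and 5 tested genes within 500000 bases of them were past the threshold by edgeR or at an unadjusted p under 0.05.

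5830411N06Rik, a gene whose transcript marks interleukin-17-type gamma delta T cells in mice, was higher with anti-IL-36R. It had 6.43, 10.2 and 11.9 CPM with anti-IL-36R, against 4.2, 4.72 and 5.52 CPM with anti-IL-12p40, without overlap. PBS libraries under IMQ (3.45 to 6.87 CPM) overlapped both groups, and water libraries (5.76 to 8.06 CPM) lay above every anti-IL-12p40 library. The log2 fold change was 0.97 ± 0.15 (edgeR adjusted p = 0.00487), or 1.96-fold higher. Against PBS under IMQ it was 0.75 ± 0.15 with anti-IL-36R (adjusted p = 0.00759) and -0.23 ± 0.15 with anti-IL-12p40 (adjusted p = 0.371).

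Il17f encodes interleukin-17F, a cytokine that acts with interleukin-17A on keratinocytes. It had 1.21, 2.15 and 9.02 CPM with anti-IL-36R, against 0.283, 0.418 and 1.02 CPM with anti-IL-12p40. The groups did not overlap, with the highest value in anti-IL-36R replicate 7 and the other 6 libraries of that group at or below 2.45 CPM. PBS libraries under IMQ had 2.03 to 8.41 CPM and water libraries 0.338 to 0.490 CPM, so the anti-IL-12p40 group overlapped water and the anti-IL-36R group overlapped PBS under IMQ. The log2 fold change was 2.65 ± 0.45 (edgeR adjusted p = 0.0175), or 6.28-fold higher with anti-IL-36R, and 2.04 ± 0.33 (adjusted p = 0.00788) without replicate 7. Against the shared PBS libraries it was -0.60 ± 0.39 with anti-IL-36R (adjusted p = 0.390) and -3.25 ± 0.45 with anti-IL-12p40 (adjusted p = 0.000573). The former value includes replicate 7, and the comparison with PBS was not run without that library. Without anti-IL-12p40 replicate 1, 2, 4, 5, 6 or 7 in turn its adjusted p was 0.0521 to 0.0786, and with limma-voom it was 0.0828, while the log2 fold change stayed between 2 and 2.98.

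The remaining genes past the threshold differed less or were counted at low level. Gcn1, whose protein activates the amino acid-sensing kinase Gcn2, had 88.6, 99.3 and 119 CPM with anti-IL-36R, against 117, 139 and 155 CPM with anti-IL-12p40, at -0.43 ± 0.07 (edgeR adjusted p = 0.0175). The groups overlapped at their edges, and PBS libraries under IMQ had 95.7 to 119 CPM. Gm5779, a transcribed pseudogene, had 5.57, 7.59 and 16.1 CPM against 15.1, 22.8 and 29.6 CPM, at -1.38 ± 0.24 (adjusted p = 0.0254), again with overlap. All of its 14 values were fractional, so reads were shared with another gene and its level is uncertain. Krt13 encodes a keratin of mucosal epithelia. It had 0.119, 0.191 and 0.456 CPM with anti-IL-36R, against 0.948, 1.02 and 1.84 CPM with anti-IL-12p40, without overlap, at -2.16 ± 0.40 (adjusted p = 0.0403) on 30 against 142 counts, also fractional in every library. Both groups were thus at the low end of measurable expression, and PBS libraries under IMQ had 0.117 to 0.610 CPM. Against PBS under IMQ, Gcn1, Gm5779 and Krt13 passed with anti-IL-12p40, at 0.34 ± 0.08, 1.23 ± 0.25 and 2.08 ± 0.42, with adjusted p of 0.00761, 0.00568 and 0.00518, and did not pass with anti-IL-36R, at -0.08, -0.15 and -0.08. Leaving out single libraries ended the Gcn1 call in 8 of 14 cases, the Gm5779 call in 10 and the Krt13 call in 12.

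**Figure D1:**
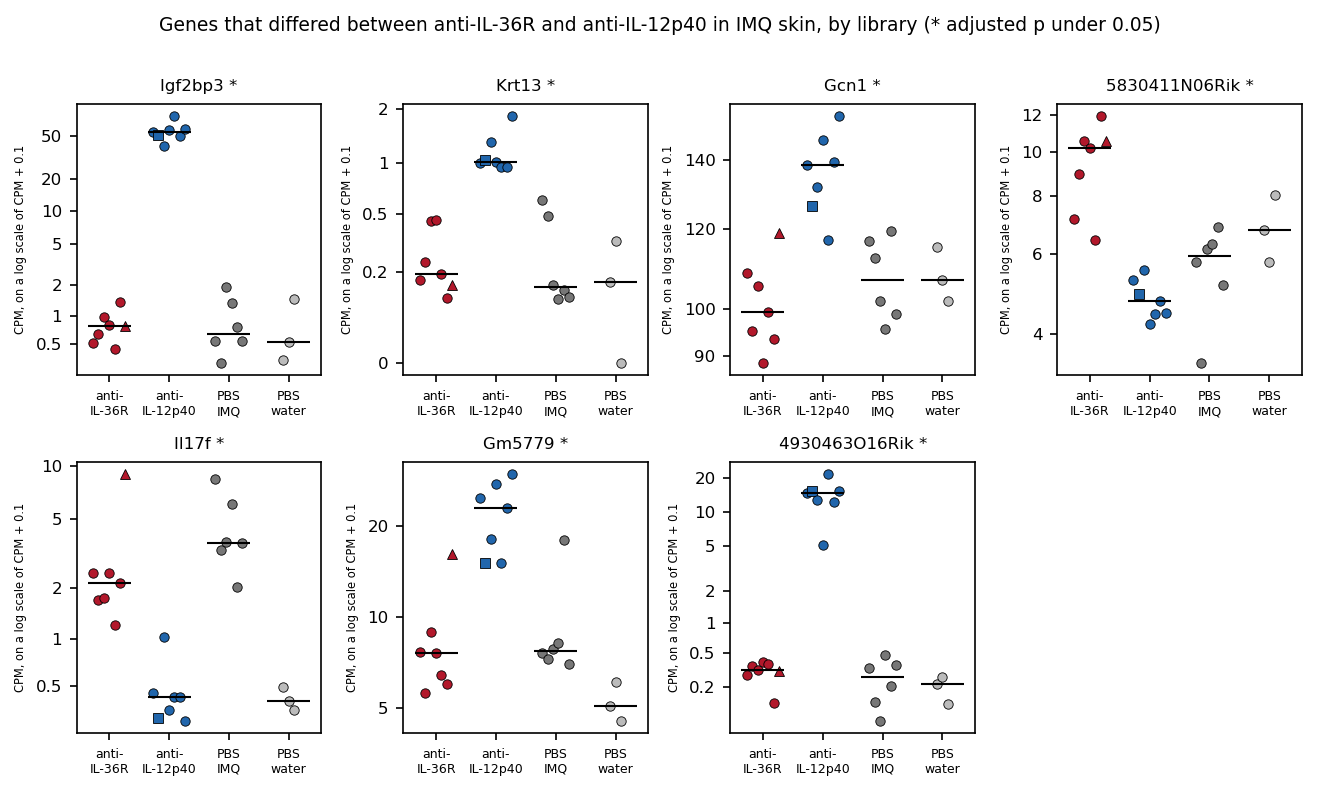
Normalized expression (CPM plus 0.1, log axis) of the 7 genes past the threshold in each skin library by group, with group medians as lines, anti-IL-36R replicate 7 as a triangle and anti-IL-12p40 replicate 2 as a square. Igf2bp3 and 4930463O16Rik are high in the anti-IL-12p40 group alone, and Il17f is at 0.283 to 1.02 CPM there, against 1.21 to 9.02 CPM with anti-IL-36R.

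The promoters of the genes with the largest differences and of Il17f are shown so that their starts can be compared. Each runs from 250 bases before to 50 after a RefSeq start (GRCm38.p6), on the gene's strand, 5′ to 3′. The annotated span of Igf2bp3 reaches base 49215469, beyond its window, so that window is not at the gene's outermost start. Capitals mark matches, on either strand, to TGANTCA (AP-1), TTCNNNGAA (STAT), GGGA followed by 4 free bases and CC (NF-kB) or TATAAA (the TATA box).
Igf2bp3 (chr6:49214905-49215204, minus strand): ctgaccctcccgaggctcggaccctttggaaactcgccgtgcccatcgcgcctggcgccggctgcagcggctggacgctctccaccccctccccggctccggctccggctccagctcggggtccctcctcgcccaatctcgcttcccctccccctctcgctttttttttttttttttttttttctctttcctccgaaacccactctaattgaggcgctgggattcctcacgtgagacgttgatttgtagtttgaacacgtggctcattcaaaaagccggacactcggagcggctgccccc
4930463O16Rik (chr10:84488043-84488342, plus strand): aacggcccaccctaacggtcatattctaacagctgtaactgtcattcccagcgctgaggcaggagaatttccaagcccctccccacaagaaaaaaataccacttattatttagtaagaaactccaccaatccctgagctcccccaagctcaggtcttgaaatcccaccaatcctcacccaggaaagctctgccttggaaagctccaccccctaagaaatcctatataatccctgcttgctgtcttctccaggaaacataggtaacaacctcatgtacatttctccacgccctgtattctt
Il17f (chr1:20784221-20784520, minus strand): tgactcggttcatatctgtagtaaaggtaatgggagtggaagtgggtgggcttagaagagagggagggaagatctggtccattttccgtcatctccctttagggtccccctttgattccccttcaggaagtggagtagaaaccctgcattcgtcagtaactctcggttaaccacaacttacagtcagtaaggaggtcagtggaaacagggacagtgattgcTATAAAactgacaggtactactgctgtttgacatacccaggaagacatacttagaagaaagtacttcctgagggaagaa
The Il17f window held 1 TATAAA, starting 29 bases before the start. These letters occur in 14.2% of the 27025 mouse promoters of this length, TGANTCA in 7.93%, TTCNNNGAA in 8.47% and the NF-kB motif in 20.5%. The other windows held none of the 4 motifs, and their G and C content was 60.3% for Igf2bp3, 47.3% for 4930463O16Rik and 46.3% for Il17f.

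At an unadjusted p under 0.05 there were 814 genes (5.3%), those past the threshold included, 355 of them higher with anti-IL-36R (2.31%) and 459 lower (2.99%). All 7 libraries of 1 antibody lay above all 7 of the other for 27 genes (0.176%), of which 11 were higher with anti-IL-36R (0.0717%) and 16 lower (0.104%), Il17f, 5830411N06Rik, Igf2bp3, 4930463O16Rik and Krt13 among them. Among the more abundant genes with the smallest p that did not pass, E2f2, a transcription factor of the cell cycle, stood at -0.55 ± 0.11 (edgeR adjusted p = 0.0871) and the kinase gene Tnik at -0.36 ± 0.07 (adjusted p = 0.101). Tnik had 14.8, 17.8 and 18.9 CPM with anti-IL-36R, against 19.4, 22.2 and 24.1 CPM with anti-IL-12p40, which did not overlap. Zbtb16, encoding the factor PLZF of innate-like lymphocytes, had 3.50, 6.34 and 9.79 CPM against 10.4, 14.9 and 19 CPM, also without overlap, at -1.04 ± 0.25 (adjusted p = 0.328). Other lower values of this kind were Dnah8 at -1.04 ± 0.21 and Pglyrp2, an amidase that cuts bacterial peptidoglycan, at -1.14 ± 0.25. On the other side, the mitochondrial glycerol-3-phosphate dehydrogenase gene Gpd2 had 51.3, 56.8 and 62.1 CPM with anti-IL-36R, against 36, 42.4 and 49.8 CPM, at 0.41 ± 0.09 (adjusted p = 0.213). Zc3h12a, encoding an RNase that degrades cytokine mRNAs, had 154, 182 and 264 CPM against 79.9, 127 and 134 CPM, without overlap, at 0.71 ± 0.18 (adjusted p = 0.413). Zc3h12a in PBS libraries under IMQ was at 155 to 379 CPM, alongside the anti-IL-36R group.

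**Figure D2:**
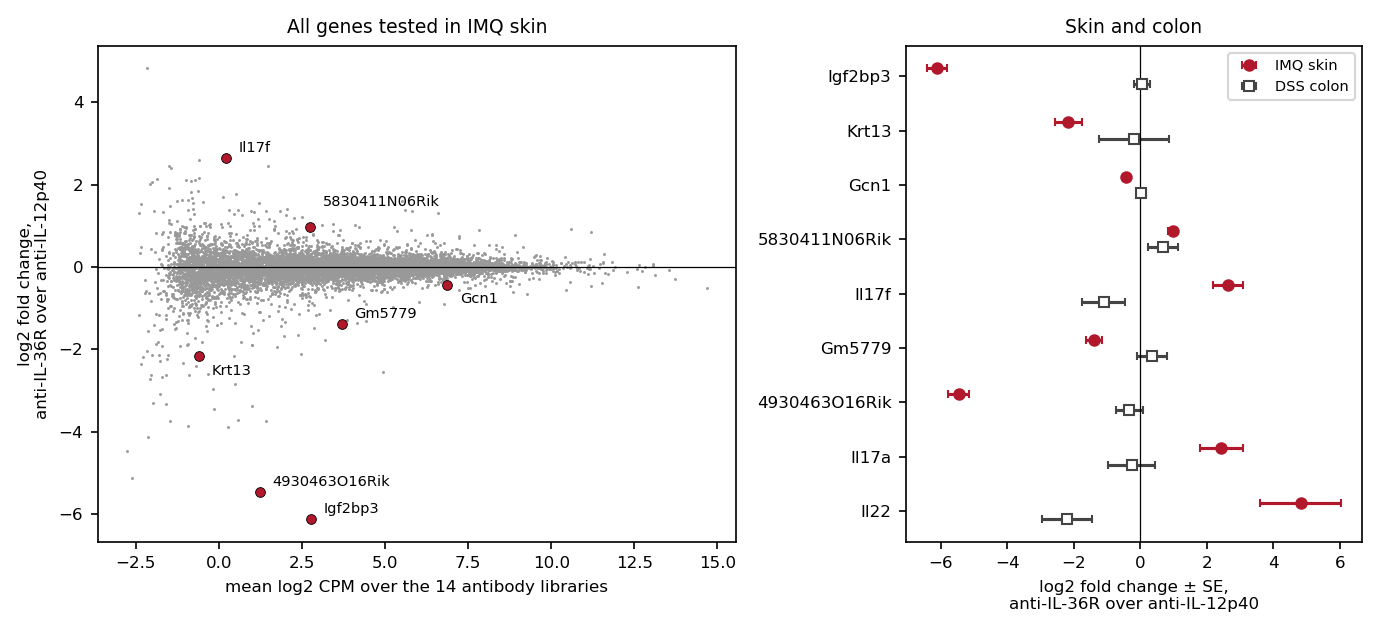
Left, log2 fold change (anti-IL-36R over anti-IL-12p40) against mean log2 CPM for all 15345 genes tested in skin, with the 7 past the threshold named. Right, log2 fold change ± SE of these genes, Il17a and Il22 in IMQ skin (filled circles) and DSS colon (open squares), where Igf2bp3 stands at -6.12 in skin and 0.04 in colon.

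Interleukin-17 and interleukin-22 cytokines and receptors, which act downstream of interleukin-23, were read first among the lists, an order that is not a ranking. Of 15 measured members 1 rose (Il17f) and none fell, 9 had positive and 6 negative values, and the median log2 fold change was 0.06, against -0.0027 over all genes. At an unadjusted p under 0.05 by edgeR, 3 members were higher, Il17f included, and 0 lower. Counts of list members at an unadjusted p under 0.05 stand beside 2.31% higher and 2.99% lower over all genes tested. Il17a, encoding interleukin-17A, had 0.227, 0.456 and 2.03 CPM with anti-IL-36R, against 0, 0.0707 and 0.307 CPM with anti-IL-12p40. The highest value was again that of anti-IL-36R replicate 7, and PBS libraries under IMQ had 0.363 to 2.37 CPM. Its log2 fold change of 2.44 ± 0.65 did not pass (edgeR adjusted p = 0.439) on 78 against 14 counts, and was 1.75 without replicate 7. Il22, encoding a cytokine that drives keratinocyte proliferation, had 83 counts in 6 of 7 anti-IL-36R libraries, against 2 counts in 2 of 7 anti-IL-12p40 libraries. That was 0 to 3.39 CPM against 0 to 0.0598 CPM, with 0.426 to 3.26 CPM in PBS libraries under IMQ. The ratio of counts pooled over libraries, scaled for library totals, was 43.3. Its counting interval of 11.6 to 363 leaves out the spread between libraries. The ratio was not computed without anti-IL-36R replicate 7. Il22 did not pass by edgeR (4.83 ± 1.22, adjusted p = 0.388) and passed by the DESeq2 Wald test (adjusted p = 0.00793), and without replicate 7 the edgeR value was 2.99 ± 0.99.

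Interleukin-12 and interleukin-23 subunits, receptors and signalling genes gave 0 of 12 measured members past the threshold by edgeR, 0 with an unadjusted p under 0.05, and a median of 0.07, or -0.05 without anti-IL-36R replicate 7. Il12b, encoding p40 itself, had 0.179, 0.389 and 0.782 CPM with anti-IL-36R, against 0.12, 0.737 and 1.96 CPM with anti-IL-12p40, at -1.08 ± 0.54 (adjusted p = 0.960). Il23a, encoding the p19 partner of p40 in interleukin-23, had 0.285, 0.836 and 4.85 CPM against 0.538, 1.20 and 1.95 CPM, at 0.08 ± 0.51, and -0.71 ± 0.43 without anti-IL-36R replicate 7. Both genes overlapped widely between the groups. Il23r, the receptor subunit of interleukin-23, stood at 0.20, Il12rb1 at 0.01 and Il12rb2 at -0.53. Il12a had 1 to 6 counts with anti-IL-36R and 0 to 5 with anti-IL-12p40, Ifng had 0 to 3 in each group, and neither was tested.

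Gamma delta T cell markers were read to set 5830411N06Rik beside its neighbours on that list. Of 13 measured members 1 rose, 2 were higher and 1 (Zbtb16) lower at an unadjusted p under 0.05, and the median was 0.06, or -0.01 without anti-IL-36R replicate 7. Blk, a kinase gene of these cells and of B cells, had 1.27, 2.97 and 4.49 CPM with anti-IL-36R, against 1, 1.53 and 2.10 CPM with anti-IL-12p40, at 0.89 ± 0.25 (edgeR adjusted p = 0.515). Cd163l1, a scavenger receptor gene of the same family as 5830411N06Rik, stood at 0.24 ± 0.19. In bulk skin, fewer cells of a type and less RNA per cell cannot be told apart.

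The receptor, antagonist and ligand genes of the interleukin-36 family that were tested had no RNA past the threshold. Il1rl2 had 17.8, 21.5 and 25.5 CPM with anti-IL-36R, against 20.1, 20.9 and 24.5 CPM with anti-IL-12p40, and its log2 fold change of 0.00 ± 0.09 had a 95% interval of -0.18 to 0.18. These counts are on the mouse reference, and since the labels name no receptor allele, they do not show the level of a human receptor gene if the mice carry one. Il1f5, the antagonist gene, had 453, 563 and 648 CPM against 454, 522 and 688 CPM, at -0.04 ± 0.20. Il1f9, encoding the ligand interleukin-36 gamma, stood at -0.11 and Il1a, encoding interleukin-1 alpha, at -0.15. The ligand gene Il1f8 had 2 to 12 counts with anti-IL-36R and 5 to 14 with anti-IL-12p40 and was not tested. The ligand gene Il1f6 is listed at 0 in every library of both tissues, so no change in it could be read. Of these ligand genes only Il1f9 was tested. Over the 16 measured members of the interleukin-36 and interleukin-1 family 0 passed by edgeR, 1 was higher at an unadjusted p under 0.05, 11 were positive and 5 negative, with a median of 0.09, or 0.00 without anti-IL-36R replicate 7.

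Downstream cytokines and neutrophil chemokines did not pass either, and for Cxcl1, Cxcl2, Cxcl3, Il1b, Il6 and Tnf the highest library was anti-IL-36R replicate 7. Of 9 measured neutrophil chemokines and colony-stimulating factors, 0 passed by edgeR, 2 were higher at an unadjusted p under 0.05, and the median was 0.09, or -0.10 without that replicate. Cxcl2, a chemokine that draws neutrophils, had 0.171, 0.771 and 22 CPM with anti-IL-36R, against 0.201, 0.919 and 4.84 CPM with anti-IL-12p40, at 1.78 ± 0.88 (adjusted p = 0.960). Without anti-IL-36R replicate 7 the value was 0.69. PBS libraries under IMQ had 8.32, 24.4 and 103 CPM, so every antibody library other than that replicate lay below all of them. Cxcl1 stood at 1.25 ± 0.58 with all libraries and 0.31 without replicate 7, and Cxcl3 at 2.11 ± 0.86 and 0.95. Il1b, encoding interleukin-1 beta, had 5.59, 10.2 and 69.0 CPM with anti-IL-36R, against 6.65, 10.2 and 23.8 CPM with anti-IL-12p40, and 34.4, 54.3 and 128 CPM with PBS under IMQ. Its log2 fold change was 0.65 ± 0.48, and -0.05 without replicate 7. Il6 stood at 1.39 ± 0.60 and 0.14 without that library, with medians of 0.955 CPM with anti-IL-36R and 1.02 CPM with anti-IL-12p40. Tnf stood at -0.11 ± 0.33, and Ccl20, the ligand of the receptor CCR6 on interleukin-17-producing cells, at -0.49. Interleukin-20 subfamily and interleukin-6 family cytokines had 10 of 16 members positive with a median of 0.25, and monocyte and lymphocyte chemokines 10 of 20 with 0.00, with no call in either and 2 and 1 members higher and 0 and 1 lower at an unadjusted p under 0.05. Without replicate 7 these medians were 0.09 and -0.19, with 10 of 16 and 8 of 20 positive.

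**Figure D3:**
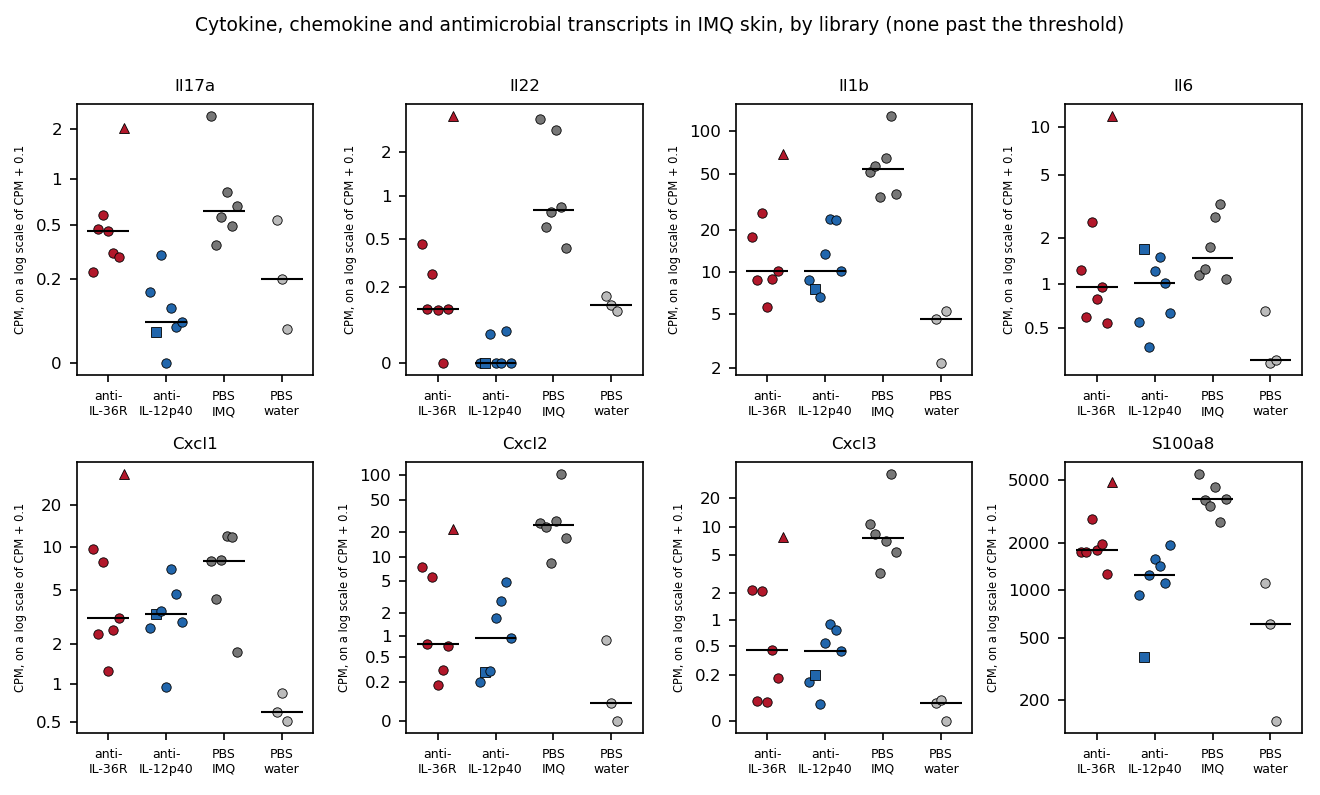
Normalized expression (CPM plus 0.1, log axis) of Il17a, Il22, Il1b, Il6, Cxcl1, Cxcl2, Cxcl3 and S100a8 in each skin library by group, with group medians as lines, anti-IL-36R replicate 7 as a triangle and anti-IL-12p40 replicate 2 as a square. The triangle is at 22 CPM for Cxcl2, while the group medians are 0.771 CPM with anti-IL-36R and 0.919 CPM with anti-IL-12p40.

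Antimicrobial proteins are keratinocyte and neutrophil products that interleukin-17 and interleukin-22 induce. Of 20 measured, none passed by edgeR, 4 were higher and 2 lower at an unadjusted p under 0.05, and the median was 0.21, or -0.02 without anti-IL-36R replicate 7. S100a8, encoding a calprotectin subunit, had 1270, 1804 and 4872 CPM with anti-IL-36R, against 375, 1245 and 1939 CPM with anti-IL-12p40, at 0.92 ± 0.36 (adjusted p = 0.791) and 0.62 without replicate 7. PBS libraries under IMQ were at 2693 to 5458 CPM, above the whole anti-IL-12p40 group and above the anti-IL-36R median. Lcn2, encoding an iron-sequestering lipocalin, had 77.7, 194 and 365 CPM against 81.3, 125 and 170 CPM, at 0.75 ± 0.25 (adjusted p = 0.725). Defb4, a beta-defensin gene, stood at 1.37 ± 0.51. Without replicate 7 Lcn2 stood at 0.54 and Defb4 at 1.05. Ngp and Ltf, neutrophil granule genes of immature cells, ran the other way at -3.32 ± 1.21 and -2.40 ± 0.86, with medians of 0 against 0.15 CPM and 0.259 against 0.409 CPM. The highest anti-IL-12p40 values were 14 CPM for Ngp and 11.5 CPM for Ltf. Anti-IL-12p40 replicate 6 held both, and without it the values were -1.09 ± 1.08 for Ngp and -0.62 ± 0.66 for Ltf. Without anti-IL-36R replicate 7 they were -5.40 ± 1.54 and -2.96 ± 0.95. Over 17 neutrophil markers the median was -0.19, 0 passed by edgeR and 1 was higher at an unadjusted p under 0.05, and without replicate 7 the median was -0.40 with 3 of 16 positive.

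Feedback regulators of NF-kB and STAT3 had 13 of 16 members positive, 4 of them at an unadjusted p under 0.05 (2.31% of all genes tested were higher at that level), with a median of 0.18 and none past the threshold by edgeR. Beside Zc3h12a, Nfkbiz, encoding the co-regulator of interleukin-17 targets IkB-zeta, stood at 0.49 ± 0.17 and Socs1 at 0.61 ± 0.24. Without anti-IL-36R replicate 7 Nfkbiz stood at 0.36, Socs1 at 0.34 and the list's median at 0.06. Early-response genes, which any acute stimulus of tissue can raise, had 12 of 15 members positive and 0 past the threshold, with 3 higher at an unadjusted p under 0.05. Their median was 0.31 with all libraries and 0.12 without that one. Fosb stood at 1.22 ± 0.47 with all libraries and 1.07 without it, and Nr4a1 at 0.97 ± 0.37 and 0.62. The part of early response in that library's cytokine values was not tested.

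Keratinocyte genes gave no call beside Krt13. Of 32 stress keratinocyte proteins 0 passed by edgeR, 4 were higher and 1 lower at an unadjusted p under 0.05, 21 were positive, and the median was 0.10, or -0.10 without anti-IL-36R replicate 7. Krt16, a keratin of hyperproliferative epidermis, stood at -0.08 ± 0.27 with a 95% interval of -0.65 to 0.48, and Krt6b at 0.02. Sprr2b, encoding a cornified envelope precursor, had 75.5, 146 and 364 CPM with anti-IL-36R, against 39.3, 66.9 and 85.8 CPM with anti-IL-12p40, at 1.32 ± 0.35 (adjusted p = 0.439). Without replicate 7 Sprr2b stood at 0.99 ± 0.32. Serpinb3a, a protease inhibitor gene of inflamed epidermis, had 235, 302 and 470 CPM against 126, 176 and 231 CPM, without overlap, at 0.90 ± 0.28 (adjusted p = 0.588). For Sprr2b the PBS libraries under IMQ had 244 to 816 CPM, above every anti-IL-12p40 library and above the anti-IL-36R median. Cornified barrier proteins had 28 of 34 members negative, 2 of them at an unadjusted p under 0.05, and a median of -0.10, with 17 of each sign and a median of 0.00 without replicate 7. Without anti-IL-12p40 replicate 2 their median was -0.08, with 27 members negative and 0 at that level. Among them Flg2, encoding filaggrin-2, had 84.2, 433 and 996 CPM with anti-IL-36R, against 417, 630 and 920 CPM with anti-IL-12p40, and 25.3, 40.6 and 123 CPM with PBS under IMQ. Its value of -0.60 ± 0.43 had a 95% interval of -1.48 to 0.28, so differences beyond 1 on the log2 scale lay within the error.

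Lipid, junction and cell cycle lists gave 0 calls by edgeR and at most 3 members of a list at an unadjusted p under 0.05. Epidermal and sebaceous lipid enzymes had 34 of 44 members positive with a median of 0.07, cholesterol synthesis enzymes 19 of 22 with 0.11, and tight junction proteins 13 of 19 with 0.03. Scd1, the stearoyl-CoA desaturase gene, stood at 0.02 and Awat1, a wax ester synthase gene of sebocytes, at 0.10. Lipoxygenases and phospholipases A2 had a median of -0.02 over 20 members, and the Stefin A cluster 0.02 over 8. Cell cycle genes had 25 of 30 members negative with a median of -0.05. All of these medians lay within 0.12 of 0 on the log2 scale.

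**Figure D4:**
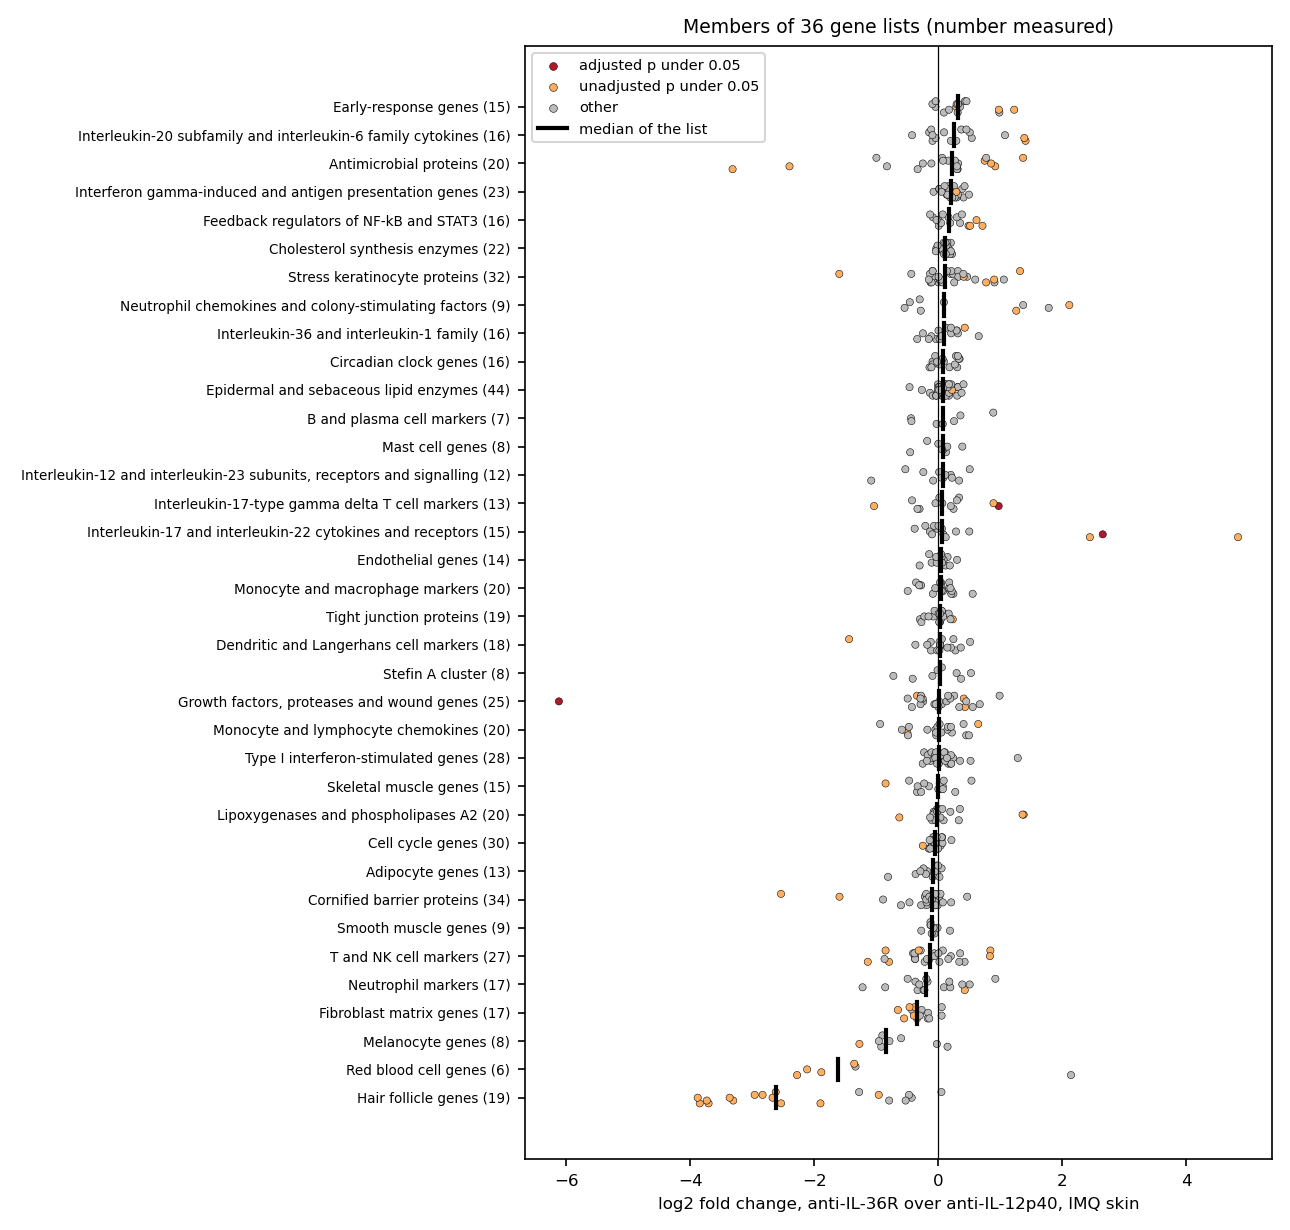
Log2 fold change (anti-IL-36R over anti-IL-12p40) in skin of every measured member of the 36 gene lists, 1 row per list, with members at adjusted p under 0.05 in red, at unadjusted p under 0.05 in orange and others in grey, and a bar at the median. Most medians lie near 0, and the hair follicle genes, at -2.62, lie farthest from it.

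T and NK cell genes gave no call. Of 27 T and NK cell markers 0 passed by edgeR, 2 were higher and 5 lower at an unadjusted p under 0.05, and the median was -0.14. Foxp3, which encodes the defining factor of regulatory T cells, had 1.99, 3.42 and 4.09 CPM with anti-IL-36R, against 2.21, 6.20 and 8.06 CPM with anti-IL-12p40, at -0.85 ± 0.24 (adjusted p = 0.513). PBS libraries under IMQ had 1.47 to 2.34 CPM and water libraries 5.56 to 10.8 CPM. Against PBS under IMQ, Foxp3 passed with anti-IL-12p40 (1.59 ± 0.26, adjusted p = 0.00164) and not with anti-IL-36R (0.74, adjusted p = 0.106), while the antibodies themselves did not differ past the threshold. Ctla4, an inhibitory receptor gene of these cells, stood at -0.80 ± 0.28. Gzma, encoding granzyme A, had 2.44, 6.55 and 9.36 CPM against 1.55, 2.71 and 6.69 CPM, at 0.83 ± 0.32, and Klrb1c, encoding the NK cell receptor NK1.1, stood at 0.84 ± 0.34. Cd8a, the marker gene of cytotoxic T cells, had the opposite sign, with 0, 0.259 and 0.573 CPM against 0.271, 0.369 and 2.25 CPM, at -1.14 ± 0.55, and -0.36 ± 0.47 without anti-IL-12p40 replicate 3, its highest library. The general T cell genes Cd3e and Cd4 stood at -0.14 and -0.29.

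Interferon gamma-induced and antigen presentation genes had 22 of 23 members positive, with a median of 0.21, or 0.23 without anti-IL-36R replicate 7, yet 0 were past the threshold by edgeR and 1 was at an unadjusted p under 0.05. B2m, encoding the light chain of MHC class I, stood at 0.29 ± 0.12. Type I interferon-stimulated genes were split 14 to 14, with a median of 0.00 and 0 members at that level. Monocyte and macrophage markers had a median of 0.04, dendritic and Langerhans cell markers 0.02, and B and plasma cell markers 0.07, with 0 calls among 20, 18 and 7 measured members and 0, 1 and 0 at an unadjusted p under 0.05.

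Structural genes of the dermis and the hair had mostly negative values, with 0 past the threshold by edgeR. Fibroblast matrix genes had 15 of 17 members negative, 7 of them at an unadjusted p under 0.05 (2.99% of all genes tested were lower at that level), and a median of -0.34, or -0.35 without anti-IL-36R replicate 7. Postn, encoding the matrix protein periostin, had 276, 590 and 651 CPM with anti-IL-36R, against 575, 793 and 957 CPM with anti-IL-12p40, at -0.65 ± 0.20 (adjusted p = 0.553), and the collagen gene Col1a1 stood at -0.55 ± 0.26. Summed over the list the level was 5521 to 12822 CPM against 9786 to 17605 CPM. Hair follicle genes had 18 of 19 members negative, 13 at an unadjusted p under 0.05, and a median of -2.62, and here anti-IL-12p40 replicate 2 had a summed level of 2723 CPM while the other 6 libraries of its group had 105.7 to 163.7 CPM and the anti-IL-36R group 85.9 to 264 CPM. Without that library the median was 0.02, with 9 of 17 members positive. Tchh, encoding trichohyalin of the inner root sheath, stood at -2.54 ± 0.92 with it and 0.27 without it, and Krt71 at -3.73 ± 1.49 and 0.43. Krt75, a keratin of the companion layer of the hair, was less tied to it, with 12.2, 27.4 and 41.9 CPM against 31.0, 48.8 and 99.1 CPM, at -0.96 ± 0.25 (adjusted p = 0.413) and -0.77 without that library. Melanocyte genes had a median of -0.85, or -0.32 without it. Red blood cell genes, at a summed 5.34 to 45.2 CPM against 8.90 to 154 CPM, had a median of -1.62, with 4 of 6 lower at an unadjusted p under 0.05. Adipocyte genes had a median of -0.09, skeletal muscle genes 0.00, smooth muscle genes -0.11, endothelial genes 0.05, mast cell genes 0.07 and circadian clock genes 0.08, with 0 calls among them and 1 member, of skeletal muscle, at an unadjusted p under 0.05. Growth factors, proteases and wound genes held 1 call, Igf2bp3, among 25 members, with a median of 0.01, or -0.13 without anti-IL-36R replicate 7. By the DESeq2 Wald test the list members past the threshold were, beside Il17f, Igf2bp3 and 5830411N06Rik, Il22, Zbtb16 and Krt73. Krt73 stood at -3.88 ± 0.97 in that test. By edgeR it stood at -1.10 ± 0.73 without anti-IL-12p40 replicate 2, its highest library in that group. The part of hair, dermis and blood content in the differences of other genes was not tested.

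The overall extent of the IMQ response was placed on a scale from 0, the mean of water libraries, to 100, the mean of PBS libraries under IMQ. It uses the 5061 genes (33%) that differed between those groups. The antibody libraries did not enter that contrast, but shared its fit and so its filter and its estimate of the spread. Anti-IL-36R libraries lay at 32.6, 52.6 and 98.0 (lowest, median and highest) and anti-IL-12p40 libraries at 29.2, 57.7 and 76.1. The means were 64.2 ± 24.6 with anti-IL-36R and 54.8 ± 15.3 with anti-IL-12p40 (SD, n = 7 each), so the groups overlapped over most of their range. Anti-IL-36R replicate 7 was the library at 98.0, within the range of PBS libraries under IMQ (90.7 to 109), and anti-IL-12p40 replicate 2 was the one at 29.2. Among the 2381 genes higher under IMQ than water, 72.6% had a positive difference between the antibodies, with a median of 0.05, and among the 2680 lower under IMQ 32.6% did, with a median of -0.06. Without anti-IL-36R replicate 7 these shares were 55.4% and 42.5%. Of the 2381 genes 1 passed between the antibodies (Il17f), and of the 2680 none.

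**Figure D5:**
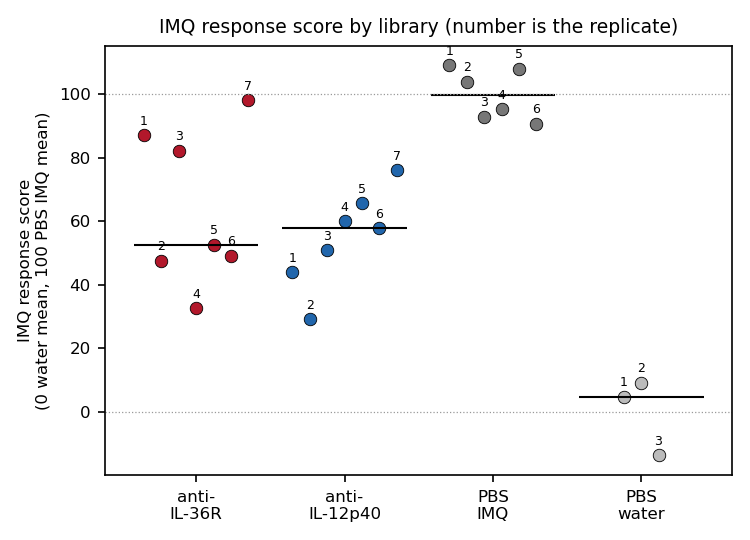
Position of each skin library between the mean of water libraries (0) and the mean of PBS libraries under IMQ (100) on the imiquimod-response scale, by group, with replicate numbers beside the points and group medians as lines. The anti-IL-36R libraries range from 32.6 to 98.0 and the anti-IL-12p40 libraries from 29.2 to 76.1.

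Each antibody's own comparison with PBS under IMQ gave 646 genes with anti-IL-36R (4.21%) and 1351 with anti-IL-12p40 (8.8%), against the same 6 PBS libraries. Of the 1494 genes past the threshold in either comparison, 143 passed with anti-IL-36R alone, 848 with anti-IL-12p40 alone and 503 with both. Differences between the antibodies passed for 7 of these 1494 genes, 6 that had passed with anti-IL-12p40 alone and 1 with anti-IL-36R alone, so a gene on 1 list alone was rarely shown to differ between the antibodies.

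The same antibodies were compared in DSS colon, in other libraries. By edgeR 0 of 15731 genes (0%) were past the threshold there, with 552 at the unadjusted level (3.51%) and 1 whose libraries did not overlap (0.00636%), and the DESeq2 Wald test gave 0 and 631. Colon Igf2bp3 had 1.63, 2.86 and 4.55 CPM with anti-IL-36R, against 1.45, 2.68 and 4.25 CPM with anti-IL-12p40, at 0.04 ± 0.24. Likewise 4930463O16Rik had 0.0617, 0.420 and 0.640 CPM against 0.174, 0.555 and 0.874 CPM, at -0.33 ± 0.41. The high values of both genes with anti-IL-12p40 in skin had no counterpart in colon. Tested as an interaction over 16818 genes, the antibody difference itself differed between skin and colon for 2 genes (0.0119%), Igf2bp3 at -6.16 ± 0.41 (edgeR adjusted p = 7.66e-15) and 4930463O16Rik at -5.13 ± 0.54 (adjusted p = 2.48e-08). Il17f in colon had 0.0617, 0.272 and 0.465 CPM with anti-IL-36R, against 0.0581, 0.584 and 1.32 CPM with anti-IL-12p40, at -1.09 ± 0.65. Its difference between tissues was 3.74 ± 0.79, which did not pass by edgeR (adjusted p = 0.0957) and passed by DESeq2 (adjusted p = 0.00395). Il22 in colon had medians of 0.0911 CPM with anti-IL-36R and 0.562 CPM with anti-IL-12p40. It stood at -2.20 ± 0.76, opposite in sign to skin, and did not pass. The difference between tissues for Il22 was 7.05 ± 1.41, which did not pass by edgeR (adjusted p = 0.0571) and passed by DESeq2 (adjusted p = 0.000581). 5830411N06Rik stood at 0.68 ± 0.46 in colon, in the direction seen in skin, and the test of the difference gave 0.29 (adjusted p = 1).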

How the data were processed

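RNA of mouse skin and colon was enriched for messenger RNA and sequenced strand-specifically, per the labels' protocols. The authors deposited 1 table of RSEM expected counts per tissue, on mm10, per the submitters' processing notes, with no RSEM version in the sources used here. Expected counts divide reads that fit several genes, and 16.69% of skin values were not whole (tolerance 1e-06). Values were rounded. Of 24475 Entrez gene IDs, 24375 matched a RefSeq symbol (GRCm38.p6).

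All 23 skin libraries entered 1 edgeR 4.0.16 fit (R 4.3.3) with filterByExpr, TMM factors and quasi-likelihood F tests, and colon (26 libraries) and the interaction (49) were fitted alike. A gene passed at a Benjamini-Hochberg adjusted p under 0.05 over all genes tested. SEs were obtained by dividing the size of the log2 fold change by the root of its F statistic, and CPM use TMM-adjusted totals. Intervals on counts cover counting error only.

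Members and the 36 gene lists were chosen with earlier results of these data known. Named genes are all that passed, the 10 per direction with the smallest p that did not pass (mean log2 CPM at least 1, clone-named genes left out), up to 6 per list and a fixed cytokine set, of which the text prints part. Genes added to show which libraries decide a value, such as Tchh, Krt71, Cxcl3 and Igf2bp1, were chosen after their values were seen. The IMQ scale is the mean log2 CPM (prior count 2) of genes higher minus that of genes lower under IMQ than water. Alternatives were DESeq2 1.42.0 size factors and Wald test, no or a strict filter (1 CPM in 7 libraries), limma-voom 3.58.1 with sample weights, the antibody groups alone and leaving out each library. The methods were tested on simulated data. Promoters came from RefSeq, and plots from Python 3.11.15 with matplotlib 3.10.9.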

Additional observations from a re-analysis of the deposited data

Results flagged for a closer look

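Within the antibody groups, 22 of 212 sets of 7 libraries (10.4%) held a library whose gap to the next exceeded Dixon's critical value, which chance alone passes in about 1 in 20 sets. The genes were partly chosen for such libraries, so the share is not compared with that rate. Of the 22, 5 were anti-IL-36R replicate 7 and 4 anti-IL-12p40 replicate 2. Values are CPM, with the next library in brackets.

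Anti-IL-36R replicate 7 was high for Il17f at 9.02 (2.45), Il17a at 2.03 (0.583), Il17c at 4.12 (2.02), Socs1 at 14.7 (7) and Ngp at 1.25 (0.194). Elsewhere in that group, replicate 6 was low for 4930463O16Rik at 0.119 (0.284), replicate 3 for Krt75 at 12.2 (25.1), replicate 1 for Il12rb1 at 0.398 (1.3) and Cd3e at 1.48 (3.31), and replicate 5 for Csf2 at 0 (0.299).

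Anti-IL-12p40 replicate 2 was high for Krt73 at 63.2 (3.89), Tchh at 1140 (36), Crnn, a cornified-layer gene of mucosa, at 25.4 (3.25) and Tceanc2 at 18.5 (15.3). In the other libraries of that group, replicate 3 was high for Il17f at 1.02 (0.451) and Cd8a at 2.25 (0.501), and replicate 6 for Cxcl5 at 14.3 (1.08) and Hbb-bs at 3.88 (0). Low values were those of replicate 4 for 4930463O16Rik at 5.15 (12.4) and Il1f9 at 1.36 (2.47), replicate 7 for Cfap69 at 0.353 (1.08) and replicate 5 for Hba-a1 at 0 (6.7).

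The antibody difference itself differed between skin and colon for Igf2bp3, by -6.16 on the log2 scale, and for 4930463O16Rik, by -5.13.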

How the results depend on the processing

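The 7 genes past the threshold (2 higher, 5 lower) numbered 7 with DESeq2 size factors, 9 without a filter, 6 under the strict filter and 10 with limma-voom, 8 of these lower. The count moved by over 1.5 times with the DESeq2 Wald test, to 22 (8 higher, 14 lower), with the antibody groups fitted alone, to 4 (1 and 3), and with the DESeq2 Wald test on those groups alone, a setting chosen after seeing the data, to 47 (20 and 27). Leaving out 1 library gave 3 to 8 genes, 1 to 2 of them higher and 2 to 6 lower: 3 without anti-IL-12p40 replicate 1, 4 or 7, 4 without anti-IL-36R replicate 2, 5 or 6 or anti-IL-12p40 replicate 6, and 8 without anti-IL-36R replicate 7. The cause was not tested. Il17f, Gcn1 and Gm5779 each had an adjusted p of 0.0746 in the edgeR fit of the antibody groups alone. Igf2bp3, 4930463O16Rik and 5830411N06Rik passed in 21 of 21 alternatives, Il17f in 13, Gcn1 in 12 and Gm5779 in 10, and Krt13 in 8 of 20. In colon 0 genes passed under every alternative run, and the difference between tissues passed for 16 genes by DESeq2. None of the genes that passed changed sign, and 20 of 106 named genes, none of them past the threshold, did so in at least 1 alternative. Of 36 list medians 1 moved by more than the spread between libraries without anti-IL-12p40 replicate 2, that of hair follicle genes, and 0 did without anti-IL-36R replicate 7. That spread included the library left out, which could widen it, so the rule could miss a shift. Without anti-IL-36R replicate 7, medians that counted as unmoved could change sign, as for antimicrobial proteins (0.21 to -0.02). No paired analysis was possible because the labels give no numbers that pair the groups. With 7 libraries a group the median half-width of the 95% interval was 0.24 on the log2 scale, and genes under about 1 CPM rest on few counts.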
